A study of Caenorhabditis elegans with 9 samples.

Results

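The cassette exons of 3 SR protein genes, *rsp-4*, *rsp-7* and *rsp-8*, and of the splicing factor gene *rbm-39* were followed in wild-type and NMD-mutant worms. The members were every exon that the deposited cassette-exon tables assign to these genes, together with a 93-nt exon on chromosome III. That exon carries the gene name F45H7.10 in the table, but it lies inside *rsp-8* (WBGene00004705, chromosome III from 11826418 to 11830974 on WBcel235) and is called the *rsp-8* exon here. Each gene had a single cassette exon, so there were 4 members among 786 exons for *smg-1*, and 4 among 620 for *smg-2*. In the *smg-2* table the rows of *rsp-7* and *rsp-8* repeated the *smg-1* values, so only *rsp-4* and *rbm-39* had *smg-2* values of their own.

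The study asked how alternative exons that do or do not preserve the reading frame are handled by nonsense-mediated mRNA decay (NMD). Polyadenylated RNA was sequenced from whole hermaphrodite *C. elegans* at the L4 larval stage, with 3 biological replicates per genotype. Wild-type animals were N2, *smg-1* animals were strain TR1331 and *smg-2* animals were strain CB4043, both labelled as knockouts. The genetic background of the mutant strains was not checked. Each mutant was represented by 1 strain, and the same 3 wild-type libraries served as control for both mutants. No gene-level counts were used here, so neither the loss of *smg-1* or *smg-2* nor the whole-animal origin was checked against expression. Because whole animals were pooled, an exon change in all cells and a larger change in some cells cannot be told apart.

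Junction reads over the exons used summed to between 88649 and 208127 per wild-type library and between 152874 and 319057 per *smg-1* library. Over the smaller set of exons used for *smg-2* they summed to between 70071 and 160670 in wild-type and between 47438 and 123213 in *smg-2*. The exons used had a mean inclusion of 5.03% to 95% in the *smg-1* mutant and of 5.39% to 94.6% in the *smg-2* mutant, while wild-type means spanned 0% to 100%, so exons that stay almost fully skipped or included in a mutant are not among those analysed here.

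NMD removes mRNAs on which translation stops too early. SMG-1 is a kinase that phosphorylates SMG-2, the worm UPF1 helicase, and both are needed for decay. A poison exon is a cassette exon whose inclusion places a premature stop codon in the mRNA, so that inclusion yields an NMD substrate and skipping yields the protein-coding mRNA. SR proteins bind exonic sequences through RNA recognition motifs and promote splice site use through domains rich in arginine and serine, and mammalian SR protein genes are well known for carrying poison exons. RSP-4 is the counterpart of human SRSF2, RSP-8 of the human TRA2 proteins and RSP-7 of human SREK1. RBM-39 is the counterpart of human RBM39, a relative of the large subunit of U2AF, which recognises 3′ splice sites.

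The exon sequences are shown because in each of them the stop codon lies inside the exon itself. They were read from the RefSeq genome sequence (WBcel235), 5′ to 3′ on the transcribed strand, and capitals mark every stop codon in the frame of the coding transcript.
*rsp-4*: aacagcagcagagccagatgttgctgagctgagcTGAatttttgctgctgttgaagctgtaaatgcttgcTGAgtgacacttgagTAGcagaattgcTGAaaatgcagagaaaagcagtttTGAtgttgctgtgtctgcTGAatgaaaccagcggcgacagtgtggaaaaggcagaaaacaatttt
*rsp-8*: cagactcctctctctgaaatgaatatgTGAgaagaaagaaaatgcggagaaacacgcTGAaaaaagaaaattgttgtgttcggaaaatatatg
*rsp-7*: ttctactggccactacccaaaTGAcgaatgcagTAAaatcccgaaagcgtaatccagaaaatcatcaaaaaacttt
*rbm-39*: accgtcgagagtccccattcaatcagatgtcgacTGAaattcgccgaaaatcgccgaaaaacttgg

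The *rsp-4* exon spans 5388150 to 5388335 on the minus strand of chromosome II and is 186 nt long. The *rsp-8* exon spans 11826643 to 11826735 on the plus strand of chromosome III and is 93 nt long. The *rsp-7* exon spans 10659787 to 10659862 on the plus strand of chromosome II and is 76 nt long. The *rbm-39* exon spans 1013075 to 1013140 on the plus strand of chromosome IV and is 66 nt long. The exons of *rsp-4*, *rsp-8* and *rbm-39* were thus triplet, that is, of a length divisible by 3, as were 58.6% of the 782 exons tested in *smg-1*. Only the *rsp-7* exon would shift the frame by its length, and its stop codons come before that shift can take effect. All 4 exons lay in introns shorter than the median, with skipping introns of 316 nt in *rsp-7*, 374 nt in *rbm-39*, 380 nt in *rsp-8* and 477 nt in *rsp-4*, against 756.5 nt over the tested exons.

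Inclusion was predicted to end the protein early in all 4 genes, by different amounts. In *rsp-8* the exon is the second of 6 in the transcript and leaves 26 of 309 amino acids. In *rbm-39* it is the third of 8 and leaves 49 of 580 amino acids. Both truncations fall close to the N-terminus.
In *rsp-7* the exon is the fourth of 7 and leaves 137 of 452 amino acids. In *rsp-4* it is the third of 5 and leaves 126 of 196 amino acids, or 64.3% of the full length. These lengths count the residues that the exon itself adds before its stop, which number 7 in *rsp-7*, 9 in *rsp-8* and 12 each in *rbm-39* and *rsp-4*.

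The part lost includes most of the arginine-serine sequence. Arginine-serine or serine-arginine pairs numbered 36 in the full RSP-4 and 2 in the truncated form, and 36 and 0 in RSP-7. They numbered 20 and 8 in RSP-8, and 39 and 7 in RBM-39. RSP-4 and RSP-8 each held 1 match to the RNP1 motif of the RNA recognition motif, at residue 60 of RSP-4 and residue 117 of RSP-8. The truncated RSP-4 would keep its match and the truncated RSP-8 would lose it. The search found no match in the full RSP-7 or RBM-39, so it cannot tell what their truncated forms would lose. The premature stop lay upstream of the last exon junction by 204 nt in *rsp-4*, 363 nt in *rsp-7*, 734 nt in *rsp-8* and 1560 nt in *rbm-39*, with 2, 3, 4 and 5 junctions downstream of it. Stop codons far upstream of an exon junction are the usual feature of NMD substrates.

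**Figure D1:**
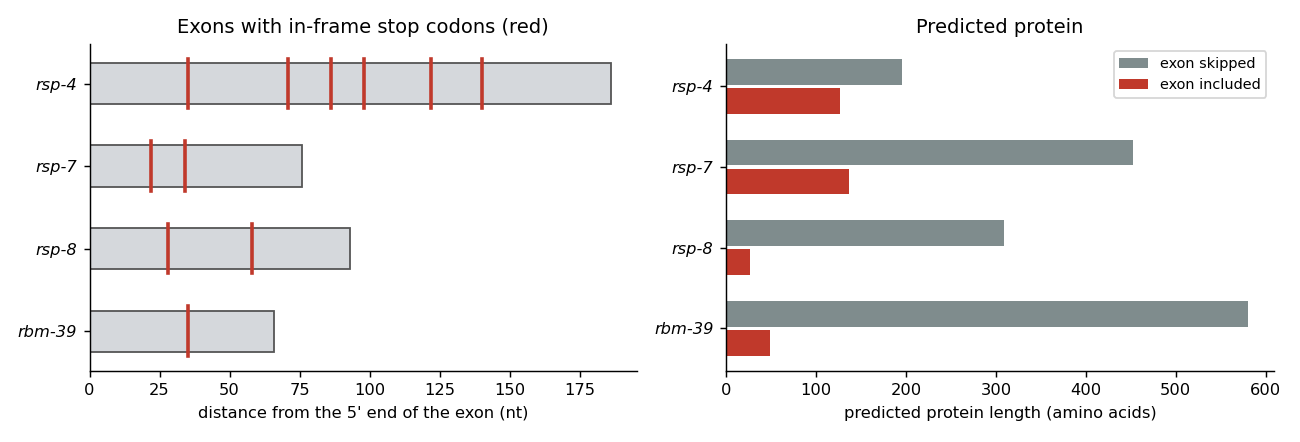
Left, each exon drawn to scale in nt from its 5′ end, with red ticks at stop codons in the frame of the coding transcript. Right, the predicted protein length in amino acids with the exon skipped (grey) and included (red). The stops number 6 in *rsp-4*, 2 in *rsp-7*, 2 in *rsp-8* and 1 in *rbm-39*, and inclusion shortens each protein, least in *rsp-4*.

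In-frame stops were found in 24.5% of the 489 tested exons whose skipping junction is an annotated intron within a coding sequence. Among those whose inclusion rose in *smg-1* the share was 82.2% (37 of 45), among those that fell 12.5% (1 of 8), and among those not called 18.8%. The 4 members belong to the first of these sets. Over all 782 tested exons 49 rose and 51 fell, so most of the exons that fell are not in these sets. The annotation already held the *rsp-4* exon in 2 transcripts, the *rbm-39* exon in 2 and the *rsp-7* exon in 1, whereas the *rsp-8* exon was in none, although 78.7% of the exons in the *smg-1* table were annotated.

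The 3′ splice sites that the exons compete with are shown as well, since *C. elegans* 3′ splice sites are known for a strongly conserved run of T followed by CAG. Each line gives the last bases of the intron, with the AG in capitals, and the first bases after it, first for the 3′ splice site of the exon and then for the one used when the exon is skipped.
*rsp-4* exon: ctgacttatttatAGaac
*rsp-4* skipped: cttaataaatttcAGatc
*rsp-8* exon: ttaaaaaatctgcAGcag
*rsp-8* skipped: tgccccgttttgcAGaat
*rsp-7* exon: ttgttcattttacAGttc
*rsp-7* skipped: tattccatttttcAGttg
*rbm-39* exon: tagagtgccgtttAGacc
*rbm-39* skipped: aaaaaaacgtttcAGatc
A C stood directly before the AG in all of the competing sites and in the exon sites of *rsp-7* and *rsp-8*, while *rsp-4* and *rbm-39* exons had a T there. No splice site strength was measured.

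All 4 exons were mostly skipped in wild-type and rose in *smg-1*. For *rsp-7*, *rsp-8* and *rbm-39* the unproductive isoform had a mean share of the junction reads above that of the productive one. An included exon has a junction at each end, whereas skipping gives only the junction across it. An mRNA that includes the exon can therefore give more junction reads. With inclusion reads weighted by 0.5 for this, the unproductive isoform was the larger only for *rsp-7* at 59%, while *rsp-8* stood at 44.3% and *rbm-39* at 38.1%. Inclusion is given as PSI, the percentage of an exon's junction reads that include it, and an exon was called when its mean PSI changed by over 10 points with a limma adjusted p under 0.05. By that rule 4 of 4 members rose in *smg-1*, where 6.27% of the 782 exons tested rose. In the *smg-2* comparison 2 of 2 members rose, where 6.83% of 498 exons did. The exons of *rsp-4*, *rsp-8* and *rbm-39* had wild-type means under 5%, below every mutant mean in the tables, so they could be listed only by being higher in a mutant and these counts are a description. Among exons with a wild-type mean under 5%, 38.5% of 96 rose in *smg-1* and 65% of 40 in *smg-2*. Every mutant library lay above every wild-type library for each member, a separation seen in 15.7% (*smg-1*) and 13.5% (*smg-2*) of exons.

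*rsp-4* encodes the SR protein most like SRSF2. Its exon had a PSI of 3.22%, 1.82% and 4.14% in wild-type replicates 1, 2 and 3, from 1524, 880 and 1014 junction reads. PSI was 20.9%, 18.8% and 19.1% in *smg-1*, from 2237, 1528 and 1099 reads, and 23.4%, 22.9% and 28.5% in *smg-2*, from 610, 1308 and 495 reads. The mutant libraries were tightly grouped and far from wild-type, yet skipping stayed the major form in all of them. The mean rose from 3.06% ± 1.17 (SD, n = 3) to 19.6% ± 1.15 in *smg-1*, a gain of 16.5 points (limma, adjusted p = 0.00267), and to 24.9% ± 3.09 in *smg-2*, a gain of 21.9 points (limma, adjusted p = 0.00187). With inclusion reads weighted by 0.5 the *smg-1* gain was 9.31 points, under the limit of 10. As odds of inclusion against skipping, the rise was 8.16-fold in *smg-1* (limma 95% interval 4.17 to 16) and 11.1-fold in *smg-2* (5.34 to 22.9).

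*rsp-8* encodes the TRA2-like member, a splicing activator in flies and mammals. Its exon had a PSI of 3.98%, 1.57% and 4.33% in wild-type, from 503, 319 and 393 reads. In *smg-1* PSI was 61.5%, 67.0% and 55.4%, from 423, 748 and 251 reads. Even the lowest *smg-1* library included the exon in more than every second junction read, against 5 inclusion reads in the lowest wild-type library. The mean rose from 3.29% ± 1.5 to 61.3% ± 5.80 (SD, n = 3), a gain of 58.0 points (limma, adjusted p = 7.66e-04), or 51.2-fold in the odds (22.2 to 118). The *rsp-8* exon had the least precise single value in *smg-1*, an exact 95% binomial interval 12.6 points wide at 251 reads, and such intervals cover counting error only.

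*rsp-7* encodes the SREK1-like member. Its exon had a PSI of 7.02%, 7.94% and 10% in wild-type, from 570, 315 and 380 reads. In *smg-1* PSI was 74.6%, 68.4% and 79.2%, from 720, 1090 and 490 reads. Both groups lay above those of the other members. The mean rose from 8.32% ± 1.53 to 74.0% ± 5.44 (SD, n = 3), a gain of 65.7 points (limma, adjusted p = 5.10e-04), or 32.2-fold in the odds (17.7 to 58.5).

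*rbm-39* encodes an RNA-binding protein outside the rsp series that also carries an arginine-serine domain. Its exon had a PSI of 2.83%, 3.36% and 3.77% in wild-type, from 494, 327 and 292 reads. PSI was 54.2%, 54.3% and 56.9% in *smg-1*, from 1385, 937 and 633 reads, and 60.3%, 58.2% and 67.6% in *smg-2*, from 411, 758 and 259 reads. Junction reads that include and that skip the exon were thus near equal in *smg-1*, with a spread of only a few points between libraries. With inclusion reads weighted by 0.5 the *smg-1* mean was 38.1%. The mean rose from 3.32% ± 0.471 to 55.1% ± 1.5 (SD, n = 3) in *smg-1*, a gain of 51.8 points (limma, adjusted p = 4.80e-04). It was 62.0% ± 4.92 in *smg-2*, a gain of 58.7 points (limma, adjusted p = 4.45e-04). The odds rose 36.0-fold in *smg-1* (22 to 59.0) and 48.1-fold in *smg-2* (26.3 to 88.1).

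**Figure D2:**
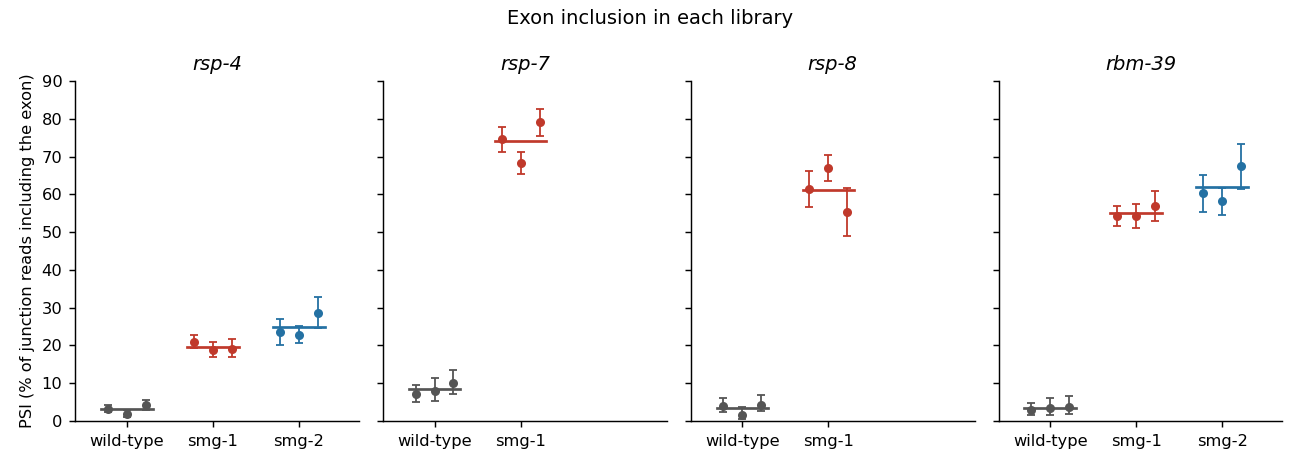
PSI in percent for the exon of each gene in each library, with replicates 1 to 3 from left to right, exact 95% binomial intervals as bars and the group mean as a horizontal line. No *smg-2* values are drawn for *rsp-7* and *rsp-8*, whose rows repeat those of *smg-1*. Wild-type libraries sit at or below 10% for every exon, and *smg-1* libraries above 50% for all but *rsp-4*.

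The order of the members depended on the measure. In *smg-1* the mean PSI ran from *rsp-7* through *rsp-8* and *rbm-39* down to *rsp-4*. The libraries of *rsp-8* and *rbm-39* overlapped, whereas those of *rsp-7* all lay above *rsp-8* and those of *rsp-4* all lay below *rbm-39*. In wild-type the libraries of *rsp-4*, *rsp-8* and *rbm-39* overlapped and only *rsp-7* stood above them. Ranked by gain in points among the 782 exons, *rsp-7* was number 2, *rsp-8* number 3, *rbm-39* number 5 and *rsp-4* number 49. By the rise in odds the order was instead *rsp-8*, *rbm-39*, *rsp-7* and *rsp-4*, and the intervals of the first 3 overlapped. The upper end of the *rsp-4* interval of the odds in *smg-1*, 16, lay below the lower ends of the other intervals, 17.7, 22 and 22.2, but the difference between the exons was not itself tested.

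**Figure D3:**
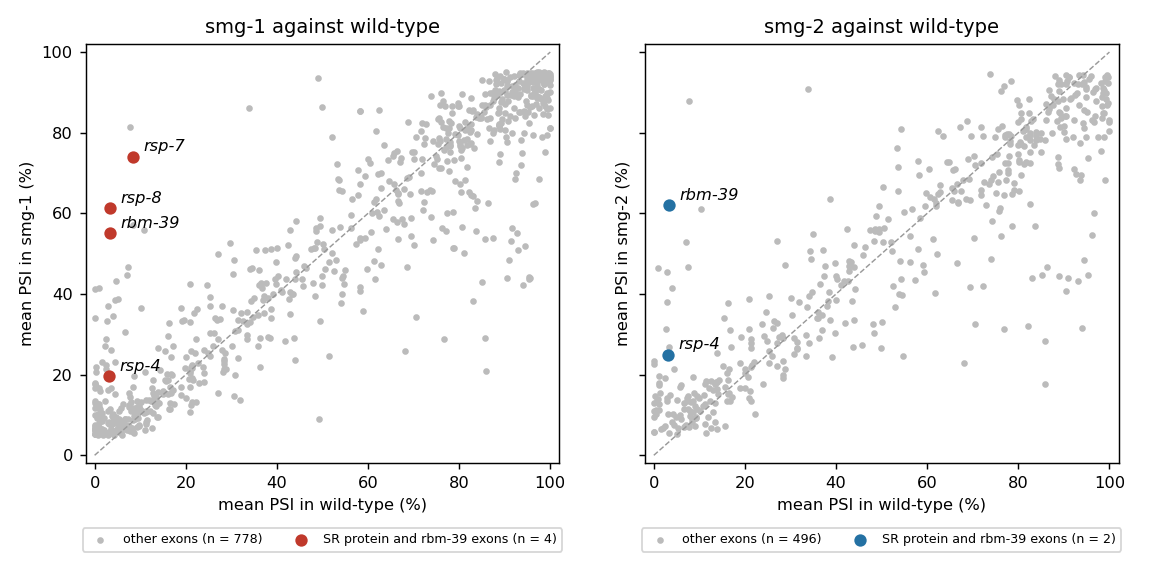
Mean PSI in wild-type (horizontal, %) against mean PSI in the mutant (vertical, %) for each exon tested, n = 3 libraries per group, for *smg-1* (left) and *smg-2* (right). Coloured points are the SR protein and *rbm-39* exons, grey points all other exons, and the dashed line marks equal PSI. The members lie along the left edge, from 19.6% to 74.0% in *smg-1*.

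The mutants were also compared with each other for the exons with own values in both. For *rsp-4* every *smg-2* library lay above every *smg-1* library, by at least 1.94 points, and the means differed by 5.32 points. For *rbm-39* the libraries were likewise separate, by at least 1.31 points, and the means differed by 6.89 points. Such a separation was seen in 9.24% of the 498 exons. Neither difference passed the test (limma, adjusted p = 0.683 for *rsp-4* and 0.690 for *rbm-39*). The ratio of the odds, *smg-2* over *smg-1*, was 1.36 for *rsp-4* (95% interval 0.854 to 2.16) and 1.33 for *rbm-39* (0.823 to 2.16), so differences up to about that upper limit were within the error. None of the 498 exons was called between the mutants by limma (0% called), and 42 had an unadjusted p under 0.05.

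PSI is a ratio, so inclusion reads and skipping reads were also tested apart, as CPM, that is, reads per 1000000 junction reads of the table after scaling with TMM. In *smg-1* inclusion reads rose for 4 of 4 members, where they rose for 8.32% of the 553 inclusion junctions tested. As for PSI, *rsp-4*, *rsp-8* and *rbm-39* could be listed only by being higher in a mutant, so this count is a description. Skipping reads fell for 1 of 4 members, where they fell for 2.26% of 574. Inclusion reads of every *smg-1* library lay above every wild-type library for 17.2% of inclusion junctions, and skipping reads below for 13.1% of skipping junctions. In *smg-2* these shares were 14.7% and 9.5%.

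For *rsp-4*, inclusion reads in CPM were 227, 208 and 275 in wild-type and 1498, 1385 and 1455 in *smg-1*. Skipping reads in CPM were 6841, 11252 and 6362 in wild-type and 5662, 5988 and 6158 in *smg-1*. The productive form thus varied most between wild-type libraries, with replicate 2 highest. Inclusion reads rose 6.05-fold (log2 2.60 ± 0.23 SE, edgeR adjusted p = 4.73e-04). Skipping reads did not overlap between the groups, but their log2 change of -0.46 ± 0.26 did not pass the test (edgeR adjusted p = 0.365).

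For *rbm-39*, inclusion reads in CPM were 64.9, 143 and 72.0 in wild-type and 2404, 2456 and 2494 in *smg-1*. Skipping reads in CPM were 2226, 4115 and 1839 in wild-type and 2029, 2065 and 1891 in *smg-1*. The skipping reads of the 2 genotypes overlapped, and the inclusion reads were far apart. Inclusion reads rose 28.0-fold (log2 4.81 ± 0.34 SE, edgeR adjusted p = 1.67e-04), while skipping reads had a log2 change of -0.44 ± 0.32 (edgeR adjusted p = 0.495).

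For *rsp-8*, inclusion reads in CPM were 92.8, 65.1 and 111 in wild-type and 832, 2417 and 963 in *smg-1*. Skipping reads in CPM were 2240, 4089 and 2461 in wild-type and 522, 1192 and 776 in *smg-1*. Both forms changed here, in opposite directions and without overlap, and *smg-1* replicate 2 was highest for both. Inclusion reads rose 15.1-fold (log2 3.92 ± 0.51 SE, edgeR adjusted p = 0.00158). Skipping reads fell by 1.82 on the log2 scale (± 0.38 SE, edgeR adjusted p = 0.0168), a call lost without *smg-1* replicate 1 (adjusted p = 0.0690) or replicate 3 (0.0633).

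For *rsp-7*, inclusion reads in CPM were 186, 326 and 249 in wild-type and 1719, 3595 and 2688 in *smg-1*. Skipping reads in CPM were 2458, 3777 and 2239 in wild-type and 586, 1665 and 707 in *smg-1*. The groups did not overlap in either form. Inclusion reads rose 10.7-fold (log2 3.42 ± 0.37 SE, edgeR adjusted p = 7.39e-04). The skipping reads had a log2 change of -1.51 ± 0.43, which missed the threshold (edgeR adjusted p = 0.0618) but passed it without *smg-1* replicate 2 (adjusted p = 0.00480).

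In *smg-2* inclusion reads rose for 2 of 2 members, where they rose for 7.49% of 387 inclusion junctions. Both members could be listed only by being higher in a mutant, so this count is a description. Skipping reads fell for neither, where 0.264% of 379 fell. For *rsp-4*, inclusion reads in CPM were 271, 258 and 333 in wild-type and 1938, 2576 and 3298 in *smg-2*, a rise of 8.96-fold (log2 3.16 ± 0.33 SE, edgeR adjusted p = 3.51e-04). For *rbm-39* they were 77.4, 178 and 87.3 in wild-type and 3361, 3799 and 4093 in *smg-2*, a rise of 34.8-fold (log2 5.12 ± 0.40 SE, edgeR adjusted p = 7.80e-05). The skipping reads of both genes overlapped between the groups, with log2 changes of -0.35 ± 0.30 for *rsp-4* and -0.52 ± 0.36 for *rbm-39* (edgeR adjusted p = 0.620 and 0.519). Wild-type replicate 2 was again the library with the most skipping reads of either gene. It was also the shallowest wild-type library, and the part of its depth in these values was not tested.

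**Figure D4:**
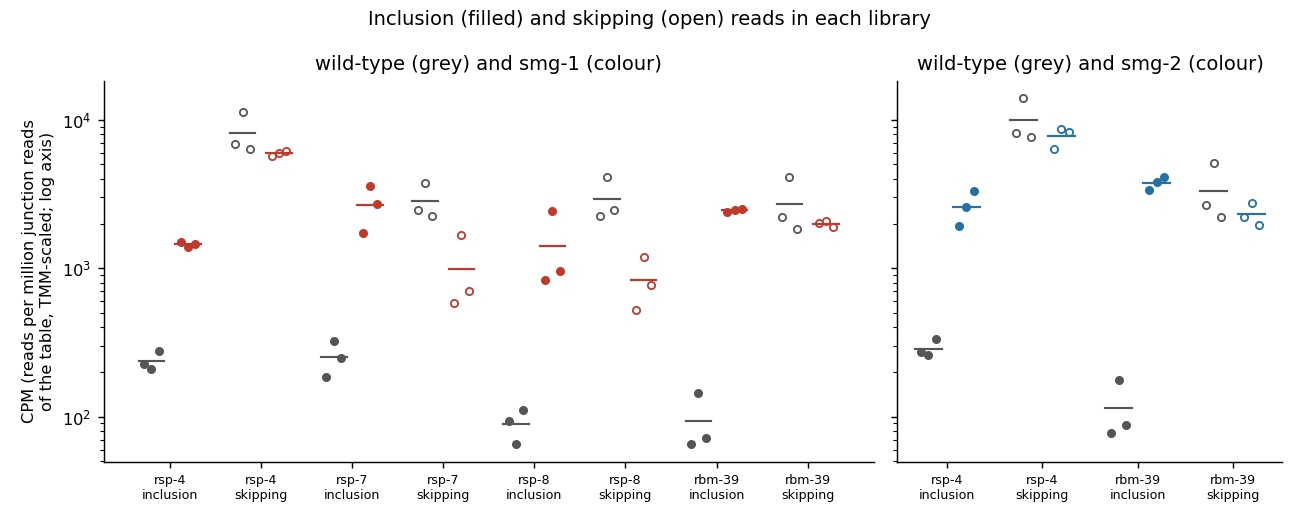
Reads in CPM (log axis) that include (filled) or skip (open) each exon, for each wild-type library (grey) and each mutant library (colour), with group means as lines. Inclusion reads are separate between the genotypes for every exon, while skipping reads of *rbm-39* overlap in both comparisons.

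Other genes of the same pathway were counted from lists of splicing factors. Of the 8 rsp genes only *rsp-4*, *rsp-7* and *rsp-8* had a cassette exon among those tested, and all 3 rose in *smg-1*, with a median change of 58.0 points against -0.42 points over all tested exons. As above, *rsp-4* and *rsp-8* could be listed only by being higher in a mutant. None of 4 SR-related genes, including the SR protein kinase gene *spk-1*, had one. Of 6 genes for U2AF-type proteins and the branch point binder 3 had one, and the members of that group did not move together. *sfa-1*, the branch point binding protein, fell from 95.3% ± 1.39 to 43.7% ± 3.73 (SD, n = 3) (limma, *smg-1*, adjusted p = 5.10e-04), so its 73-nt exon behaved oppositely to that of *rbm-39*. The wild-type mean of *sfa-1* lay above every mutant mean, so its exon could be listed only by being lower in a mutant. *uaf-1*, the large subunit of U2AF, was singled out after its values were seen. Its 216-nt exon went from 4.12% ± 0.265 to 9.85% ± 1.67 in *smg-1*, a change of 5.73 points (limma, adjusted p = 0.0243) that did not reach 10 points. The wild-type mean of *uaf-1* lay below every mutant mean, so its exon could be listed only by being higher in a mutant.

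The hnRNP and tissue-specific splicing regulators, which often act against SR proteins or in a cell type, mostly changed in the other direction. Of 29 genes 11 had a tested exon, of which 0 rose and 8 fell in *smg-1*, where 6.52% of all exons fell, with a median change of -34.1 points. In *smg-2* 1 rose and 7 fell, where 8.23% of all exons fell, with a median of -36.4 points against -0.13 points over all exons. The wild-type means of *hrpf-2* (99.4%) and *hrpk-1* (96.6%) lay above every mutant mean. Their exons could be listed only by being lower in a mutant, so these counts are a description. The exon of *fubl-1*, a KH-domain RNA-binding protein, had the largest drop, in *smg-1*, from 85.9% to 20.8% (limma, adjusted p = 5.10e-04). *asd-1*, an RBFOX-family regulator, fell from 93% to 50.8% (limma, adjusted p = 9.67e-04), and *etr-1*, a CELF-family regulator, from 91.0% to 48.3% (limma, adjusted p = 0.00381). Another KH-domain gene, *fubl-3*, fell from 76.8% to 28.9% (limma, adjusted p = 0.00902), and the hnRNP genes *hrpf-1* and *hrpk-1* fell to 42.9% and 62.5% (limma, adjusted p = 0.00107 and 5.10e-04). The 64-nt exon of *tiar-1*, a TIA-family RNA-binding protein, was the 1 that rose in *smg-2*, from 0.68% to 13.6% (limma, adjusted p = 6.97e-04). With that wild-type mean the exon could be listed only by being higher in a mutant. In *smg-1* it stood at 10.1%, a change of 9.45 points (limma, adjusted p = 9.17e-04) that just missed the limit of 10 points. Of 9 NMD factor genes only *smg-6* had a tested exon, named here after its value was seen, with a change of -5.06 points in *smg-1* (limma, adjusted p = 0.757).

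The exons nearest to the members in pattern were found by the root mean square difference of PSI over the 6 wild-type and *smg-1* libraries, among 764 exons. Nearest to *rbm-39* were an exon of F11E6.4 at 5.66 points, the *rsp-8* exon at 6.05 points and an exon of *mig-22*, a gene of chondroitin synthesis, at 8.09 points. Nearest to *rsp-8* were *rbm-39*, F11E6.4 at 8.05 points and *cgt-2*, a ceramide glucosyltransferase gene, at 11.5 points. *rsp-7* was nearest to *rsp-8* at 11.7 points, F11E6.4 at 12.9 points and *rbm-39* at 14.1 points. *rsp-8* and *rbm-39* were thus among the nearest exons of each other, while *rsp-7* was not among the nearest of either. *rsp-4*, with its smaller rise, was nearest instead to exons of F25B4.8 at 2.14 points, W04E12.7 at 2.23 points and *cisd-3.1* at 2.74 points.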

How the data were processed

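Libraries were grouped by the sample labels. The authors aligned paired-end reads with STAR and quantified splicing with JUM, and the build used for alignment is not named. The annotation and conservation scores named in the methods belong to the WBcel235 assembly. Intron ends in the WBcel235 genome were GT-AG for 100% of skipping junctions, so coordinates and sequences are given on WBcel235. Usage was deposited as the fraction of an exon's junction reads that skip it, and PSI was 100% minus that percentage. Counts were deposited by the authors as reads over the skipping junction. Counts divided by usage gave whole totals, with usage matched to within 6e-05, in 100% of cells only with the wild-type and mutant count labels exchanged (25.8% and 25.3% as labelled). The counts labelled mutant were the same in both tables, as only wild-type counts can be, so the labels of usage were trusted and those of counts were swapped. Inclusion reads were total minus skipping reads. Left out were 1 *smg-1* exon with inverted coordinates, 3 with too few values, and 122 *smg-2* exons repeating *smg-1* values (tolerance 1e-06). The authors' p-values, q-values and PSI changes were not used, and 0 columns lacked a sample.

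The logit of PSI, limited to 1-99%, was tested with limma 3.58.1, and reads with edgeR 4.0.16 (quasi-likelihood test, TMM, filterByExpr; R 4.3.3), both with Benjamini-Hochberg adjustment over the whole table and tested on simulated data. DESeq2 1.42.0, other limits, filters and scalings, a replicate block and leaving out each library were alternatives. Isoforms were built from the WBcel235 annotation with Python 3.11.15. Members and gene lists were chosen with earlier results of these data known. Named were all member exons, up to 8 called exons of the listed genes, and for each member the 3 exons of nearest PSI.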

Additional observations from a re-analysis of the deposited data

How the results depend on the processing

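Over all alternatives no member exon and no read count reversed its direction, and 224 of 232 kept their side of the threshold. Alternatives that changed only the test, its limits or its filter left the change in PSI itself the same, so it could not reverse there. As above, *rsp-4*, *rsp-8* and *rbm-39* could be listed only by being higher in a mutant. With all 9 libraries in one fit 2 members were called in *smg-1*, because only 2 have values in both tables. In that fit 71 of 498 exons were called. With repeated exons kept 4 members were called in *smg-2*, where 87 of 619 exons were. Leaving out 1 library at a time, 4 members were called each time for *smg-1*, where 69 to 113 of 782 exons were called. For *smg-2* it was 2 members each time, where 54 to 72 of 498 exons were called. Between the mutants it was 0 members and 0 of all 498 exons. Of the member read counts 4 to 6 were called for *smg-1*, where 90 to 177 of 1111 to 1269 read counts were. For *smg-2* it was 2 each time, where 49 to 90 of 732 to 877 read counts were called. With inclusion reads halved the *rsp-4* change in *smg-1* was 9.31 points, under the limit of 10, and it also missed a limit of 20 points. The *rsp-7* skipping reads were called with DESeq2 (log2 -1.57, adjusted p = 0.00944), without a filter (-1.56, 0.0467) and with the replicate block (-1.64, 0.00903). With the replicate block 4, 2 and 0 member exons were called, where 80 of 782, 63 of 498 and 0 of 498 exons were. Of the member read counts 6 and 2 were called, where 150 of 1127 and 60 of 766 read counts were. Libraries of the same number deviated together with r between -0.03 and 0.16, and the highest r between libraries of other numbers was 0.07. Correlations this weak cannot decide whether the numbers pair the samples. Scaling to total junction reads moved the median log2 change of all reads in *smg-2* from -0.05 to -0.17. The depth of 251 to 2237 reads per member and library limits single PSI values, most of all for *rsp-8* and for *rbm-39* in *smg-2*.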

Other observations

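The member exons differed in base composition and in short repeated words, which were counted after the sequences had been seen. GAA on the transcribed strand, overlapping matches included, occurred 9 times in the *rsp-8* exon, 9 times in *rsp-4*, and 3 times each in *rsp-7* and *rbm-39*. Per 100 nt this was 9.68 in *rsp-8*, 4.84 in *rsp-4*, 4.55 in *rbm-39* and 3.95 in *rsp-7*, against a median of 2.6 over the 729 tested exons of at least 30 nt. Only 6 of those exons (0.823%) were as dense as the *rsp-8* exon, whereas 13.9%, 17.4% and 23.7% were as dense as those of *rsp-4*, *rbm-39* and *rsp-7*. On the opposite strand the same word reads TTC, and it occurred 1 time each in *rsp-8* and *rsp-7*, 2 times in *rbm-39* and 0 times in *rsp-4*. Human TRA2 proteins are known to bind RNA rich in GAA. No binding was measured here.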
